A study of Bos taurus with 10 samples.

Results

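Macrophages are the most common immune cells of fat. They clear dead adipocytes, take up lipid and iron, and respond to bacterial products and to growth factor from neighbouring cells. Their identity depends on the transcription factor PU.1 (gene SPI1) and on signalling from the receptor CSF1R, and they are usually recognised in bulk tissue by a small set of surface receptors, signalling adaptors and lysosomal proteins. The genes described here are 10 such markers (CD68, CD163, CSF1R, MRC1, CD14, TYROBP, AIF1, MSR1, FCER1G and SPI1), taken by symbol from the deposited table. All 10 were found among its 12674 genes, and all 10 were among the 12521 tested.

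RNA was sequenced from intramuscular fat (the marbling between muscle fibres) and subcutaneous fat (under the skin) of adult female Angus-cross cattle, all untreated as far as the labels say. Each depot gave 5 libraries from 5 heifers, and libraries of the same number were taken as the same animal. The question behind the series was why marbling is laid down later and more slowly. Neither the muscle sampled nor how its fat was freed from fibres is given in the sources used here. Counts over the listed genes ranged from 9392739 to 14836808 per intramuscular and from 13776094 to 17685678 per subcutaneous library. The 13 adipocyte markers with values summed to 6404 to 23827 CPM (counts scaled to a common depth by edgeR's effective library sizes) in intramuscular and 23272 to 34423 CPM in subcutaneous fat, lowest in intramuscular replicate 1. Of 60 striated muscle genes listed for this check, 8 had values, and the other 52 were not analysed here. These 8 took 0.0351 to 0.208% of counts in intramuscular fat, most in replicates 1 and 3, and 0.000502 to 0.00139% in subcutaneous fat. Genes such as ACTA1, MYH7, CKM and TTN were among those without values, so the share of all muscle RNA is not known from these 8.

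Macrophage marker RNA was present in every library of both depots, and on average it was lower in intramuscular fat for each of the 10 genes, but the gene test called only CD163, the haemoglobin scavenger receptor. Of the 10 markers 1 was lower and 0 were higher at an adjusted p of 0.05 (edgeR's quasi-likelihood test, two-sided, adjusted by Benjamini-Hochberg over all 12521 genes). This fit and its SEs did not pair libraries of the same number, and values with the heifer as a block are named as such. Among all tested genes 5.49% were called lower and 6.75% higher, so a single call among 10 markers is no more than a description. At an unadjusted p of 0.05 the count was 2 of 10 (CD163 and CSF1R), against 30.7% of all tested genes. The median log2 fold change was -0.63 for the markers and -0.04 for all tested genes. A negative fold change was found for 10 of 10 markers and for 52.9% of all tested genes. Without subcutaneous replicate 5 it was found for 6 of 10 markers, with a median of -0.22, and for 52.8% of all tested genes. For none of the 10 did the depots separate completely, whereas they did for 12.9% of all tested genes. Markers of other cells of fat also had negative medians: -0.77 for 13 adipocyte, -0.55 for 13 fibro-adipogenic progenitor and -0.53 for 13 endothelial genes, of which 2, 4 and 4 were lower and 0 higher. The part of these cell types in the marker values was not tested. In bulk tissue, fewer macrophages and less RNA per macrophage cannot be told apart.

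**Figure D1:**
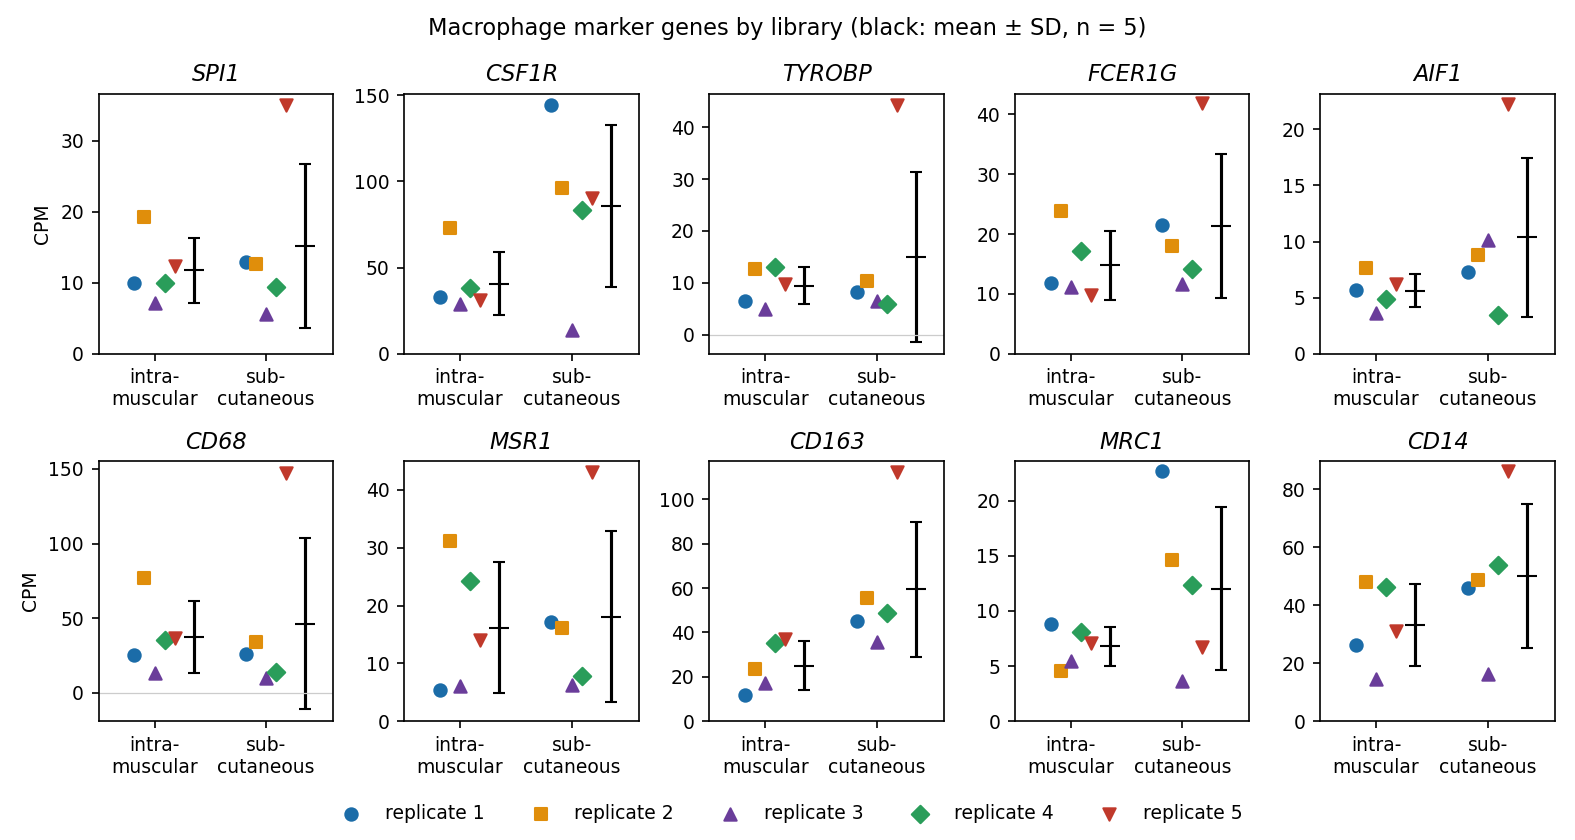
CPM (linear axes from 0 or below) of each marker in the 5 intramuscular and 5 subcutaneous libraries, with symbols for the replicate number and black bars for the mean ± SD (n = 5). Subcutaneous replicate 5 is the highest point of that depot for 8 of the 10 genes and subcutaneous replicate 3 the lowest for 8.

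Replicates 3 and 5 of subcutaneous fat set much of the spread. Replicate 5 was the highest of that depot for 8 of the 10 markers, and replicate 3 the lowest for 8. In intramuscular fat replicate 2 was highest for 7 and replicate 3 lowest for 6. Heifer 3 was thus the lowest animal of both depots for 4 markers. In the same subcutaneous replicate 5 the 11 markers of all leukocytes summed to 736 CPM. In the other subcutaneous libraries they summed to 253 to 368 CPM. PTPRC and CD37 were not highest in replicate 5, at 8.85 and 12.3 CPM, while the other genes of that list were. Of 11 neutrophil markers listed, 4 had values and summed to 312 CPM in replicate 5, against 10.3 to 57.0 CPM in the others. In replicate 5 S100A9, S100A12 and S100A8 gave 183, 72.3 and 52.1 CPM of that sum, and CSF3R 4.70 CPM. The part of these cells in the marker values was not tested. Each marker's fold change is therefore given below also without replicate 3 and without replicate 5.

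The lineage regulators come first. SPI1 encodes PU.1, the transcription factor that drives myeloid genes (ENSBTAG00000021709, chromosome 15, 77200844 to 77230554, minus strand in the coordinates of the deposited table). It measured 10.0, 19.2, 7.16, 9.96 and 12.4 CPM in intramuscular replicates 1 to 5. In subcutaneous replicates 1 to 5 it measured 13.0, 12.7, 5.59, 9.46 and 35.1 CPM. The subcutaneous range enclosed the intramuscular one, and only subcutaneous replicate 5 stood clear of the rest. The means were 11.7 ± 4.57 and 15.2 ± 11.5 CPM (SD, n = 5), with a log2 fold change of -0.37 ± 0.43 (± SE; edgeR adjusted p = 0.597). Without subcutaneous replicate 5 the fold change was 0.21, in the other direction, and without replicate 3 it was -0.58.

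CSF1R is the receptor for the macrophage growth factors CSF1 and IL34 (ENSBTAG00000012771, chromosome 7, 61380054 to 61411558, minus strand). Its intramuscular values were 33.0, 72.7, 28.8, 38.3 and 31.0 CPM. Its subcutaneous values were 144.5, 96.3, 13.7, 83.2 and 90.4 CPM. Of the 5 subcutaneous libraries 4 lay above all intramuscular ones, and subcutaneous replicate 3 lay below them all. The log2 fold change was -1.07 ± 0.46 (± SE, edgeR adjusted p = 0.132). Leaving out subcutaneous replicate 3 gave -1.35 with an adjusted p of 0.0160, and CSF1R was then called, while 2.86% of all genes tested in that fit were called lower. Without subcutaneous replicate 5 the fold change was -1.05. CSF1R was lower in 4 of 5 same-numbered pairs.

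The signalling adaptors TYROBP and FCER1G carry the activation motif through which many myeloid receptors signal to the kinase SYK. TYROBP, also called DAP12 (ENSBTAG00000007338, chromosome 18, 46576253 to 46605718, minus strand), measured 6.55, 12.7, 4.97, 13.0 and 9.87 CPM in intramuscular replicates 1 to 5. In subcutaneous fat it measured 8.20, 10.3, 6.52, 5.87 and 44.2 CPM. Apart from replicate 5, the subcutaneous values lay within the intramuscular range. Its log2 fold change was -0.67 ± 0.54 (edgeR adjusted p = 0.423) and turned to 0.29 without that library. Without subcutaneous replicate 3 it was -0.86. The gene model in the table overlaps those of APLP1 on the opposite strand and NFKBID on the same strand, so some reads may belong to either neighbour.

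FCER1G is the common gamma chain of Fc receptors (ENSBTAG00000024503, chromosome 3, 8286937 to 8290169, minus strand). It stood at 11.9, 23.9, 11.2, 17.2 and 9.87 CPM in intramuscular replicates 1 to 5. It stood at 21.4, 18.0, 11.7, 14.1 and 41.8 CPM in subcutaneous replicates 1 to 5. Subcutaneous replicate 5 was the highest library, and the other values of both depots were mixed. The log2 fold change was -0.53 ± 0.35 (edgeR adjusted p = 0.331), and it was -0.14 without subcutaneous replicate 5 and -0.69 without replicate 3.

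AIF1, also called IBA1, is a calcium-binding protein of the actin skeleton of macrophages (ENSBTAG00000020554, chromosome 23, 27685449 to 27687723, minus strand). It had the lowest counts of the 10, from 50 to 327 per library. The intramuscular values were 5.71, 7.64, 3.65, 4.88 and 6.22 CPM. The subcutaneous values were 7.29, 8.80, 10.1, 3.41 and 22.3 CPM. Subcutaneous replicate 4 was the lowest of all 10 libraries and replicate 5 the highest. AIF1 had a log2 fold change of -0.88 ± 0.42 (edgeR adjusted p = 0.172), of -0.40 without subcutaneous replicate 5 and of -0.89 without replicate 3.

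The scavenger and lectin receptors take up lipoproteins, haemoglobin and glycoproteins. CD163 binds haptoglobin and haemoglobin complexes (ENSBTAG00000019669, chromosome 5, 101786078 to 101818046, plus strand). It measured 11.8, 23.5, 17.4, 35.4 and 37.0 CPM in intramuscular replicates 1 to 5. In subcutaneous fat it measured 45.2, 55.4, 35.8, 48.8 and 112 CPM. Only intramuscular replicate 5 reached above the lowest subcutaneous library, so the depots overlapped by that comparison alone. CD163 fell by 1.25 ± 0.36 on the log2 scale (± SE, edgeR adjusted p = 0.0398), from 59.5 ± 30.4 to 25.0 ± 11.034 CPM (SD, n = 5), and was lower in 5 of 5 pairs. The call held in 5 of the 10 fits with a library left out. It was lost without intramuscular replicates 1, 2 or 3 or subcutaneous replicates 2 or 5, with adjusted p up to 0.0977, while 2.09 to 7.04% of all genes were called lower in the 10 fits, and the log2 fold change stayed between -1.43 and -0.89. It was -0.89 without subcutaneous replicate 5 and -1.38 without replicate 3. In the authors' deposited table CD163 has a log2 fold change of -1.25 and an adjusted p of 0.00686, and it is the only marker of the 10 with an adjusted p under 0.05 there, where 9.24% of all genes are lower by that rule.

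CD68 is a lysosomal glycoprotein and the most used general macrophage marker (ENSBTAG00000000133, chromosome 19, 27312058 to 27314128, plus strand). Its intramuscular values were 25.5, 77.2, 13.4, 35.1 and 36.6 CPM. Its subcutaneous values were 25.9, 34.0, 10.3, 13.9 and 147 CPM. The other subcutaneous libraries lay within or below the intramuscular range. The log2 fold change was -0.30 ± 0.65 (edgeR adjusted p = 0.793), and it became 0.84 without subcutaneous replicate 5 (adjusted p = 0.265) and -0.56 without replicate 3. With the heifer as a block it was 0.22, also reversed. No depot direction can be given for CD68.

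MSR1, scavenger receptor A, binds modified lipoproteins (ENSBTAG00000002885, chromosome 27, 20909874 to 20990586, plus strand). It measured 5.43, 31.1, 6.07, 24.2 and 14.0 CPM in intramuscular fat. It measured 17.2, 16.1, 6.21, 7.81 and 43.0 CPM in subcutaneous fat. The intramuscular libraries fell into low (replicates 1 and 3) and higher values, and 4 of the 5 subcutaneous values lay within their range. Its log2 fold change of -0.16 ± 0.57 (edgeR adjusted p = 0.879) was the smallest in size of the 10, and it was 0.06, 0.04 and 0.45 without intramuscular replicate 1, intramuscular replicate 3 or subcutaneous replicate 5. Without subcutaneous replicate 3 it was -0.38.

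MRC1, the mannose receptor CD206 of resident tissue macrophages (ENSBTAG00000038048, chromosome 13, 32239914 to 32352564, plus strand), departed from this pattern. The intramuscular values were narrow, at 8.80, 4.55, 5.48, 8.07 and 7.10 CPM. The subcutaneous values were 22.7, 14.7, 3.66, 12.3 and 6.74 CPM. Subcutaneous replicate 5, the highest library for 8 other markers, was next to the lowest for MRC1, and replicate 1 was the highest. The log2 fold change was -0.82 ± 0.41 (edgeR adjusted p = 0.196). It was -0.46 without subcutaneous replicate 1 (adjusted p = 0.439), -1.05 without replicate 3 and -0.97 without replicate 5. Without replicates 3 and 5 together, an alternative added after seeing the data, it was -1.28 with an adjusted p of 0.0263, and 2.37% of genes were then called lower.

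CD14 is the co-receptor that hands lipopolysaccharide to TLR4 (ENSBTAG00000015032, chromosome 7, 51762895 to 51765768, minus strand). It measured 26.2, 48.1, 14.6, 46.2 and 31.0 CPM in intramuscular fat. It measured 45.9, 48.7, 16.3, 53.7 and 86.1 CPM in subcutaneous fat. Each intramuscular library lay below its subcutaneous partner, although in pair 2 by only 0.02 on the log2 scale. The log2 fold change was -0.59 ± 0.39 (edgeR adjusted p = 0.322; 0.139 with the heifer as a block). It was -0.31 without subcutaneous replicate 5 and -0.82 without replicate 3.

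**Figure D2:**
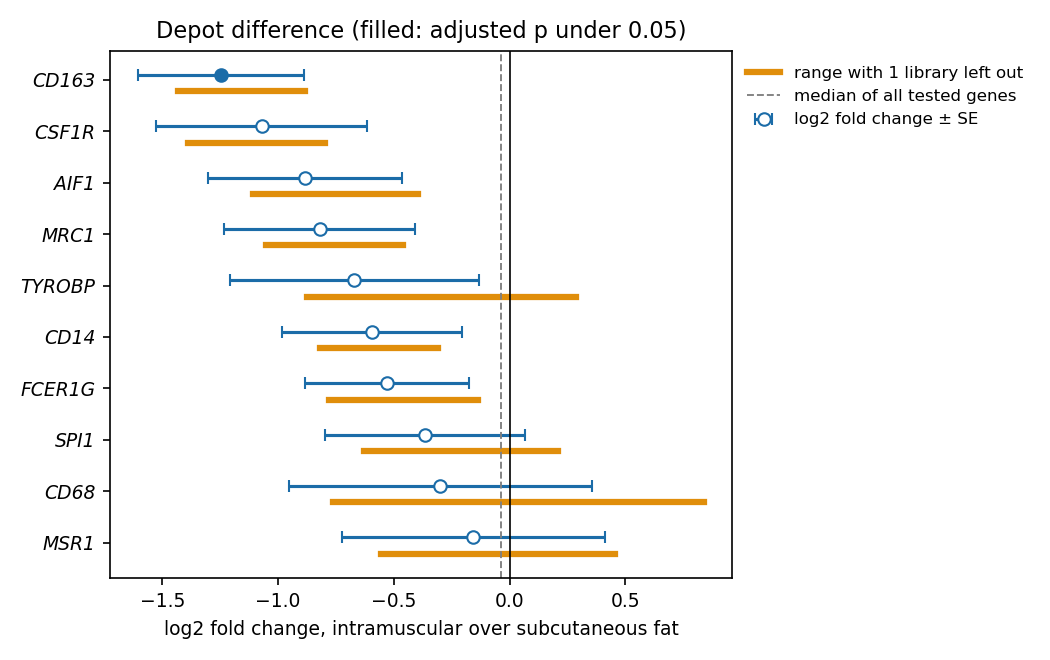
Log2 fold change of each marker, intramuscular over subcutaneous fat, with its SE (blue; filled where the adjusted p was under 0.05) and the range of the fold change when each of the 10 libraries was left out in turn (orange). CD163 alone is filled, and the orange ranges of TYROBP, SPI1, CD68 and MSR1 cross 0.

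The depot direction differed between animals and, in pairs 2, 3 and 4, between markers. In pair 1 all 10 were lower in intramuscular fat and in pair 5, 9 were, with MRC1 the exception. In pairs 2, 3 and 4 the numbers were 5, 6 and 4. CD163 and CD14 were lower in 5 of 5 pairs, CSF1R and AIF1 in 4, and CD68 and SPI1 in 2. In pair 4, CD68, MSR1 and TYROBP were higher in intramuscular fat by 1.33, 1.61 and 1.13 on the log2 scale. In pair 5 the same genes were lower, at -2.00, -1.61 and -2.15.

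**Figure D3:**
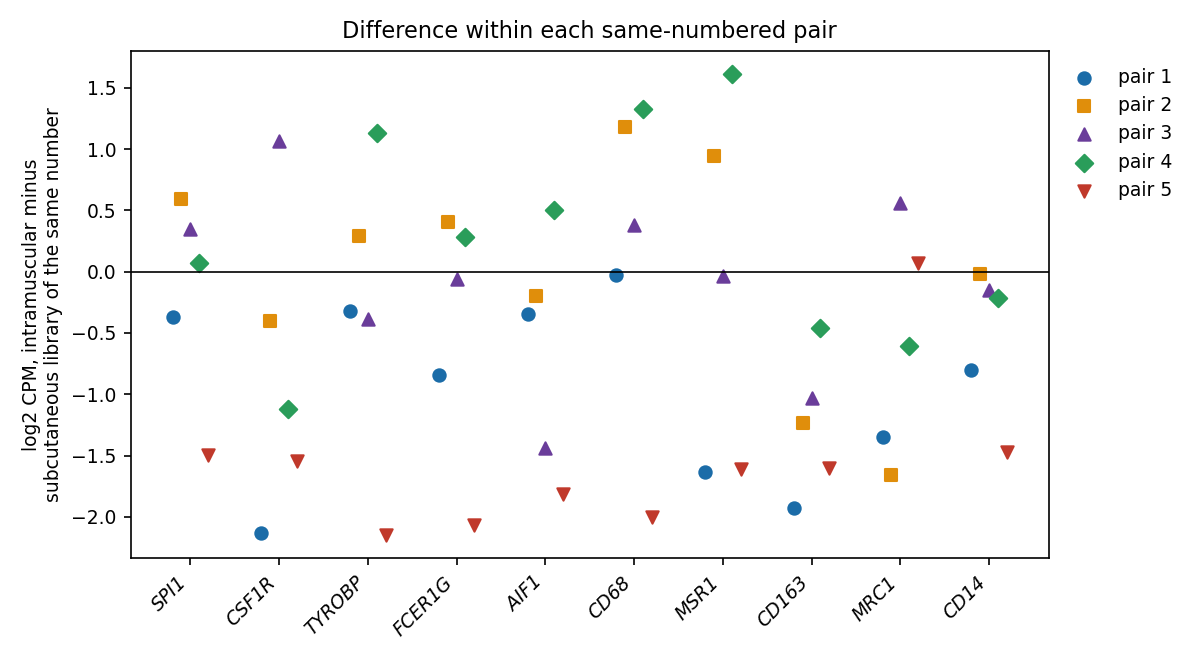
Difference in log2 CPM between the intramuscular and the subcutaneous library of the same number, for each marker and pair (5 pairs, 1 symbol each). All 5 points of CD163 and CD14 lie below 0, and pair 5 is the lowest point for SPI1, TYROBP, FCER1G, AIF1, CD68 and CD14.

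Levels can be set against each other only per length of the gene. Per kilobase of the gene length in the table, CD68 and FCER1G were the most abundant in both depots, at 28.8 ± 18.4 and 23.9 ± 9.34 CPM per kilobase in intramuscular and 35.5 ± 44.0 and 34.6 ± 19.4 in subcutaneous fat (SD, n = 5). CSF1R, CD14, CD163 and AIF1 followed, between 7.32 and 11.9 CPM per kilobase in intramuscular and 15.6 and 22.4 in subcutaneous fat. TYROBP, MSR1, SPI1 and MRC1 were the least abundant in that order, down to 1.46 ± 0.38 and 2.59 ± 1.59 CPM per kilobase for MRC1. Neighbours in this order had overlapping ranges over the libraries, except SPI1 and MRC1 in intramuscular fat.

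The markers varied more between libraries of the same depot than most genes. Their SD of log2 CPM around the depot means was 0.62 (FCER1G) to 1.23 (CD68), against a median of 0.41 over all tested genes. It was above that median for 10 of 10 markers, and larger in subcutaneous than in intramuscular fat for 8.

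With the depot means removed, 5 markers rose and fell together across the 10 libraries. CD68, SPI1, TYROBP, MSR1 and FCER1G, grouped after their correlations were seen, had pairwise Pearson's r of 0.847 to 0.975, and of 0.675 to 0.941 over the 9 libraries without subcutaneous replicate 5. The closest pair was CD68 and SPI1. Over all 45 pairs of markers the median was 0.676, and 41 pairs were above 0. These points share their library, its depth and its cell mix, and the values describe these libraries only.

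MRC1 was the least like this group over all 10 libraries, although its values moved with single libraries. Its r with the markers other than CSF1R lay between -0.41 with AIF1 and 0.36 with CD14, between -0.30 and 0.59 without subcutaneous replicate 5, and between -0.63 and -0.36 without subcutaneous replicate 3. Its r with CSF1R was 0.68, but 0.04 without subcutaneous replicate 3, so that value rests on this library. CSF1R had r of 0.57 with CD68 and 0.67 with SPI1, and 0.00 with AIF1 (0.70, 0.85 and -0.17 without subcutaneous replicate 5). These 3 values were 0.39, 0.40 and 0.24 without subcutaneous replicate 3, and the r with AIF1 was 0.60 without replicates 3 and 5. CD163 was closest to TYROBP and MSR1 (both 0.81, and 0.69 and 0.70 without subcutaneous replicate 5). It was also the marker closest to the summed adipocyte genes (r = 0.80), for which CD68 had 0.28 and MRC1 -0.25. With the summed striated muscle genes CD163 had r = -0.56, and without subcutaneous replicate 5 its r was 0.85 with adipocyte and -0.85 with striated muscle genes. The part of either in the CD163 difference was not tested. The edgeR fit with the muscle share as a covariate cannot test it, because the values of that share in the depots do not overlap. In that fit CD163 had an adjusted p of 0.836, and 1 of all 12521 tested genes was called.

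**Figure D4:**
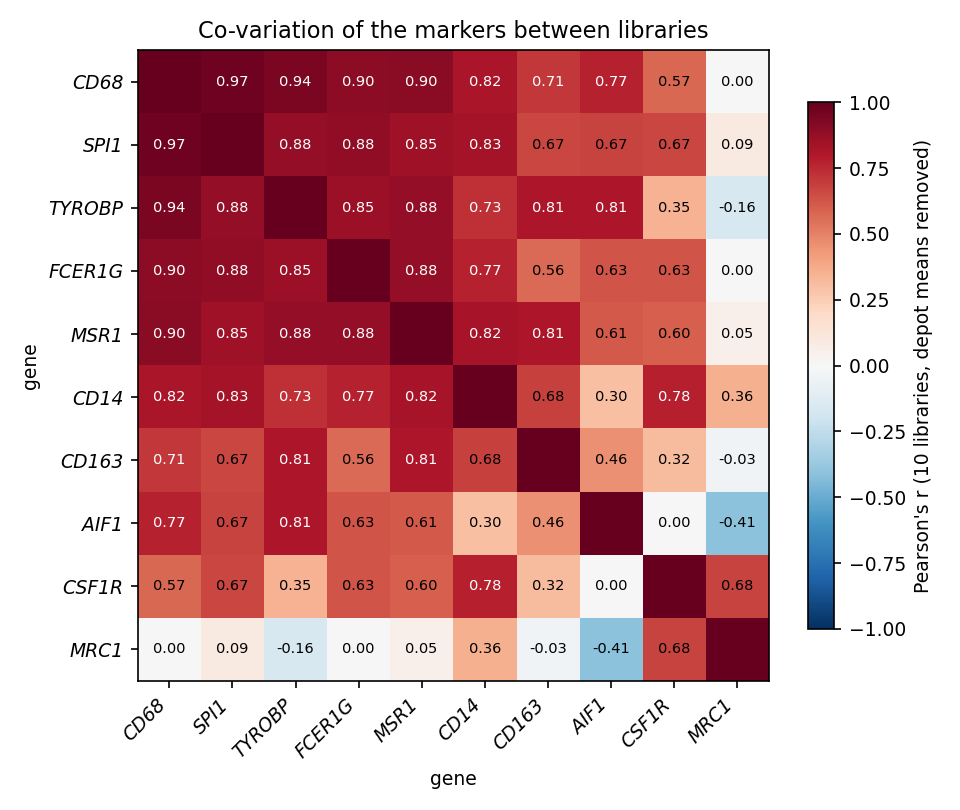
Pearson's r between markers over 10 libraries, computed on log2 CPM with each depot's mean removed (red positive, blue negative, scale -1 to 1). The upper left group of CD68, SPI1, TYROBP, FCER1G and MSR1 is uniformly high, and the MRC1 row is near or below 0 except with CD14 and CSF1R.

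Ratios to CD68 show the same unequal make-up. The log2 ratio of MRC1 to CD68 ranged over 4.28 units between libraries, from -4.45 in subcutaneous replicate 5 to -0.17 in subcutaneous replicate 4, while that of SPI1 to CD68 ranged over 1.51. The log2 ratio of CD163 to CD68 averaged -0.49 ± 0.89 in intramuscular and 0.94 ± 0.91 in subcutaneous fat (SD, n = 5). It was lowest in intramuscular replicate 2, at -1.72, and highest in subcutaneous replicate 4, at 1.81. For none of the 9 ratios did the depots separate completely.

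Among the 12249 other genes with a symbol and a mean of at least 1 CPM, the 8 that followed the mean of the 10 markers most closely were ITGB2, FCGR1A, SPN, CCDC137, CLEC4E, CYTH4, CADM1 and CPM, with r of 0.987 down to 0.948 over 10 libraries. Without subcutaneous replicate 5 their r lay between 0.912 and 0.987. ITGB2 is the common beta chain of leukocyte integrins, FCGR1A the high-affinity IgG receptor, SPN a leukocyte sialoglycoprotein and CLEC4E a myeloid lectin. CLEC4E was near the floor, with 0 to 61 counts per library. CADM1 was on the dendritic cell list, and CCDC137 and the gene CPM were on none of the marker lists. The likeness over 10 points is a ranking and carries no test. The summed level of the 11 genes of all leukocytes followed the same mean (r = 0.94), and that of the 27 other macrophage genes did so with r = 0.88. The values for adipocyte, endothelial and striated muscle genes were 0.34, 0.32 and -0.18. Without subcutaneous replicate 5 these 5 values were 0.91, 0.82, 0.25, 0.56 and -0.39. Single genes of the leukocyte list could differ from its sum. PTPRC had r from -0.22 with AIF1 to 0.91 with CSF1R, and 0.36 with CD68. These were -0.16, 0.96 and 0.73 without subcutaneous replicate 5.

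Among other macrophage genes, 5 of 27 tested were lower in intramuscular fat and 0 higher, beside 5.49% and 6.75% of all tested genes. The median log2 fold change was -0.69, close to that of the 10 markers, and 21 of 27 were negative. The lower ones were the C1q chains C1QA, C1QB and C1QC, which start the classical complement pathway, the complement receptor VSIG4 and the lectin CD209. CD209 is outside the rule for named genes and was named after its value was seen. C1QA measured 37.1 ± 7.03 against 121 ± 55.6 CPM and C1QC 23.4 ± 6.09 against 90.7 ± 49.9 CPM (SD, n = 5; edgeR adjusted p = 0.00539 and 0.00723). C1QB measured 31.4 ± 5.25 against 88.0 ± 45.4 CPM (edgeR adjusted p = 0.0196, or 0.0524 without intramuscular replicate 3). Subcutaneous replicate 3, at 42.5 CPM for C1QA and 26.6 CPM for C1QC, lay within the intramuscular range. For C1QB it lay below that range, at 24.0 CPM. VSIG4 measured 4.31, 12.6, 4.53, 8.27 and 5.27 CPM in intramuscular and 9.29, 22.6, 42.7, 117 and 111 CPM in subcutaneous replicates 1 to 5. VSIG4 was lower in 5 of 5 pairs, with a log2 fold change of -3.10 ± 0.62 (edgeR adjusted p = 0.00772). CD209 measured 7.06 ± 4.02 against 38.3 ± 27.0 CPM (SD, n = 5; edgeR adjusted p = 0.0281, 0.0620 with the heifer as a block), and it was not called without intramuscular replicates 1, 3, 4 or 5 (adjusted p up to 0.0710). By limma voom C1QB, VSIG4 and CD209 were not called (adjusted p = 0.0586, 0.0525 and 0.180).

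Over all 10 libraries the genes called by edgeR followed different markers. C1QA, C1QB, C1QC and CD209 had r of 0.90, 0.90, 0.86 and 0.95 with CSF1R and of 0.27, 0.24, 0.33 and 0.03 with AIF1. Without subcutaneous replicate 5 the values with CSF1R were 0.97, 0.92, 0.89 and 0.95, and those with AIF1 were -0.16, -0.11, -0.01 and -0.21. Subcutaneous replicate 3 was the lowest of its depot for CSF1R, C1QA, C1QB, C1QC and CD209, at 13.7, 42.5, 24.0, 26.6 and 2.48 CPM. For AIF1 it was not the lowest, at 10.1 CPM. These r were not computed without subcutaneous replicate 3, so how far they rest on it is not known. VSIG4 had r of -0.06 with CSF1R and at most 0.42 with any of the 10, or -0.15 and at most 0.21 without subcutaneous replicate 5.

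The NADPH oxidase subunit CYBB and the receptor MERTK, which binds dying cells, went the other way and were also named after their values were seen. CYBB measured 17.6 ± 5.32 against 8.97 ± 3.60 CPM and MERTK 15.5 ± 2.32 against 9.91 ± 2.83 CPM (SD, n = 5), each higher in intramuscular fat in 5 of 5 pairs. Their edgeR adjusted p were 0.0740 and 0.0824. With the heifer as a block CYBB was called (adjusted p = 0.0195), the 1 gene of the 27 higher in that fit, in which 8.09% of all genes were higher.

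**Figure D5:**
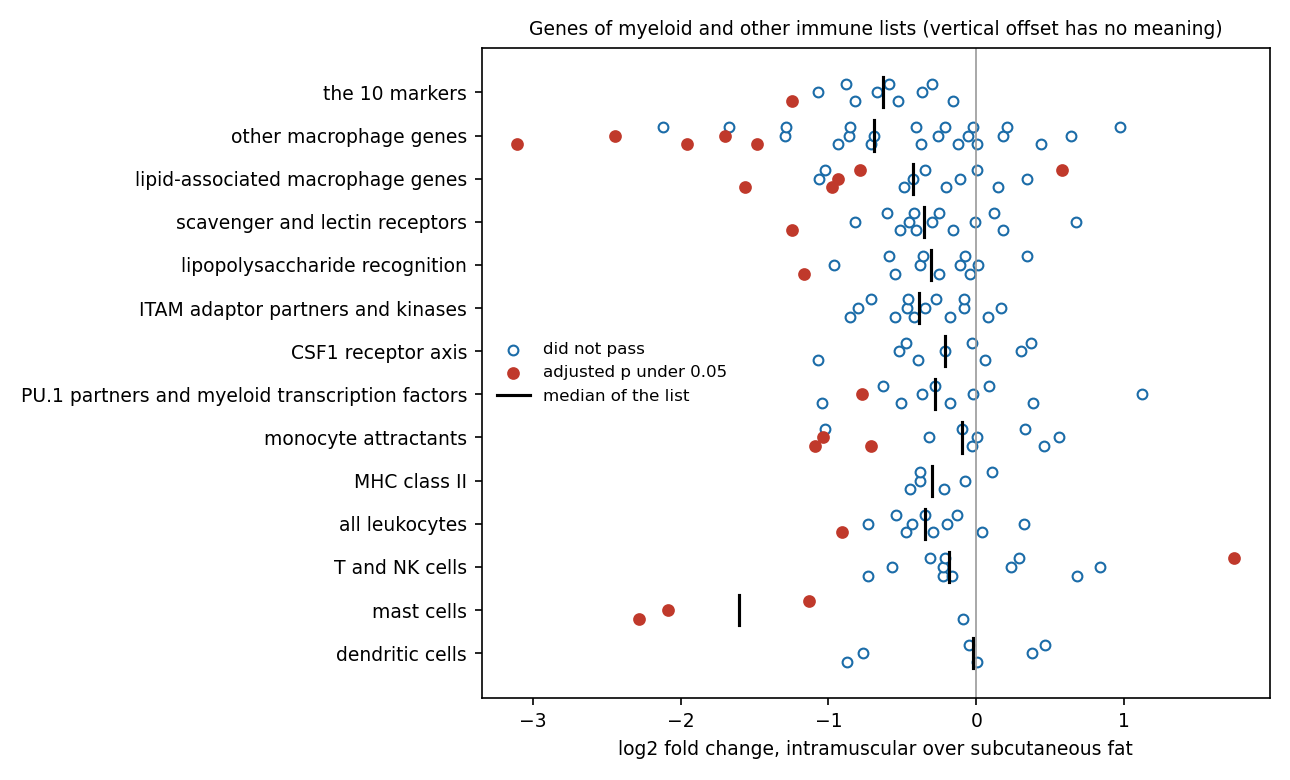
Log2 fold change, intramuscular over subcutaneous fat, of each tested gene in the 10 markers and in related gene lists (red where the adjusted p was under 0.05, open otherwise; black bar, median of the list). All medians lie left of 0, and red points outnumber open ones only in the mast cell list.

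The partners of the markers in their pathways were mostly not called. In the CSF1 receptor axis 0 of 9 tested genes passed by edgeR and 1 by DESeq2, and 2 had an unadjusted p under 0.05. Among all tested genes 12.2% passed by edgeR and 20.0% by DESeq2, and 30.7% had an unadjusted p under 0.05 by edgeR. The ligand CSF1 measured 366 ± 157 against 374 ± 142 CPM (edgeR adjusted p = 0.966). The ligand IL34 averaged 63.4 and 51.3 CPM, with a log2 fold change of 0.31 ± 0.17 (SE, n = 5; edgeR adjusted p = 0.242). PTPN6, a phosphatase that damps CSF1R signalling, had a log2 fold change of -0.52 ± 0.17 (edgeR adjusted p = 0.0595). Of the ITAM adaptor partners and kinases 0 of 14 passed by edgeR or DESeq2, and 1 had an unadjusted p under 0.05. Among those that did not pass were the Fc receptor genes FCGR3A (-0.72, adjusted p = 0.119) and FCGR1A (-0.85, 0.229, or -0.28 without subcutaneous replicate 5), whose products pair with FCER1G.

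In lipopolysaccharide recognition 1 of 12 tested genes was lower and 0 higher, beside 5.49% and 6.75% of all tested genes. LY96, the TLR4 subunit that CD14 loads, fell from 9.84 ± 2.36 to 4.38 ± 1.07 CPM (SD, n = 5; log2 fold change -1.16 ± 0.27, edgeR adjusted p = 0.0168), with no overlap between depots. Among PU.1 partners and myeloid transcription factors 1 of 11 was lower, the lipid-sensing receptor NR1H3 (LXR alpha), which adipocytes also express, at 65.6 ± 14.0 against 112 ± 29.9 CPM (edgeR adjusted p = 0.0303, kept in 5 of 10 fits with a library left out and up to 0.0798). In the list of scavenger and lectin receptors CD163 was the 1 gene of 14 that passed.

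The lipid-associated macrophage list, genes of lysosomes and lipid handling that other cells of fat also express, had 4 lower and 1 higher of 15. Among all tested genes 5.49% were lower and 6.75% higher. APOE, the apolipoprotein that macrophages and adipocytes secrete, fell from 1783 ± 878 to 602 ± 142 CPM (SD, n = 5; log2 fold change -1.57 ± 0.34, edgeR adjusted p = 0.0117). The lysosomal genes CTSD, NPC2 and CTSZ had log2 fold changes of -0.94, -0.79 and -0.97 (edgeR adjusted p = 0.0262, 0.0263 and 0.0475). The tetraspanin CD9 rose by 0.58 ± 0.17 (edgeR adjusted p = 0.0477) and was named after its value was seen. With a library left out, the calls of CD9, CTSZ, CTSD and NPC2 were kept in 1, 3, 5 and 7 of 10 fits, with adjusted p up to 0.123, 0.114, 0.0684 and 0.0629. APOE had r of -0.36 with CSF1R and 0.17 with CD68 over 10 libraries, and -0.56 and -0.49 without subcutaneous replicate 5.

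Of the monocyte attractants and adhesion genes 3 of 11 were lower and 0 higher, beside 5.49% and 6.75% of all tested genes. The chemokine CXCL12, the adhesion molecule VCAM1 and the cytokine MIF had log2 fold changes of -0.72, -1.04 and -1.09 with edgeR adjusted p of 0.0271, 0.0277 and 0.0291. Their calls were kept in 6, 6 and 5 of 10 fits with a library left out (adjusted p up to 0.0636, 0.0663 and 0.0718). All 3 were lost without intramuscular replicate 1 or 3.

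Markers of other immune cells gave a mixed account, and their counts stand beside 5.49% lower and 6.75% higher among all tested genes. Of the 11 genes of all leukocytes 1 was lower (ARHGDIB, -0.91 ± 0.19, edgeR adjusted p = 0.0106), and their summed level was 211 to 471 CPM in intramuscular and 253 to 736 CPM in subcutaneous fat. MHC class II genes had 0 calls of 6 and dendritic cell genes 0 of 6, by edgeR or DESeq2, and 0 in either list at an unadjusted p of 0.05. Over all tested genes these shares were 12.2% by edgeR, 20.0% by DESeq2 and 30.7% at the unadjusted p. In T and NK cell genes 1 of 12 was called, the T cell kinase ZAP70, which rose by 1.74 ± 0.40 (edgeR adjusted p = 0.0150), and the list summed to 34.1 to 45.7 and 31.2 to 49.3 CPM. Of the 4 mast cell genes tested 3 were lower. KIT, the tryptase TPSB2 and the carboxypeptidase CPA3 had log2 fold changes of -1.13, -2.09 and -2.29, with edgeR adjusted p of 0.0116, 0.0327 and 0.0437. With the heifer as a block TPSB2 and CPA3 had adjusted p of 0.0937 and 0.0710, and with a library left out their calls were kept in 5 and 2 of 10 fits. FCER1G is also a subunit of the mast cell IgE receptor, and the part of mast cells in its level was not tested. Mast cell genes summed to 39.7 to 56.0 CPM in intramuscular and 53.0 to 135 CPM in subcutaneous fat.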

How the data were processed

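Gene expression was measured by RNA sequencing in 10 libraries, 5 per depot, grouped and numbered by their titles. Per the labels' protocols, total RNA was copied with random hexamers and a dUTP second strand. The submitters' processing notes name DESeq2 1.42.0, featureCounts 2.0.2, STAR 2.7.11a and Trimmomatic 0.39. Which genome build and strand option were used is not given in the sources used here. The authors deposited raw counts per gene and library, with the gene's length in bases (other annotation values), their log2 fold change and their adjusted p-value. Totals are of the 12674 listed genes. The filter behind that list is not stated in them. Without the strand setting, reads of overlapping genes cannot be told apart.

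CPM used TMM-scaled library sizes, and log2 CPM a prior count of 2. Depots were compared by quasi-likelihood F test (edgeR 4.0.16, R 4.3.3) with filterByExpr (153 genes removed), Benjamini-Hochberg adjustment over all tested genes and a threshold of 0.05. DESeq2, limma voom (limma 3.58.1), other scalings and filters, the replicate block, a muscle covariate and left-out libraries were the alternatives. On simulated counts of 12397 genes for this comparison, 41.0% of 2-fold and 88.4% of 4-fold changes were called, and 2.34% of calls were unchanged genes. The changed genes were drawn at random from all genes. The markers had a larger SD of log2 CPM (0.62 to 1.23) than the median gene (0.41), so these rates need not hold for them. The design text gives 5 heifers for both depots, without saying that a number marks an animal. Deviations of same-numbered libraries from the depot means correlated at 0.102, 0.181, 0.176, 0.161 and 0.237 in pairs 1 to 5. These r are low, but each library's best match in the other depot had the same number, so the numbers were taken as pairs. Wording by heifer rests on that assumption. The rule for named genes took the 10 members, the 4 of smallest p in each other list and the 8 most like the members, 89 genes in all. Only some of these are given above, and for several lists only genes that were called. CD209, CD9, CSF1, CYBB and MERTK were added after their values were seen. The members and lists were chosen with earlier results of these data known. P-values measure the spread between these libraries.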

Additional observations from a re-analysis of the deposited data

Results flagged for a closer look

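Of the 20 sets of 5 libraries (10 markers in each of 2 depots), 5 held a library whose gap to its nearest neighbour took more than 0.71 of the whole range in CPM. Chance flags about 1 in 20 sets of independent, normally distributed values, but the markers share libraries and vary together, so that rate need not hold for them. Subcutaneous replicate 5 was the high library in 4 of them, at 147 CPM for CD68, 112 CPM for CD163, 44.2 CPM for TYROBP and 35.1 CPM for SPI1, where the gap took 0.827, 0.743, 0.884 and 0.750 of the range. Intramuscular replicate 2 was the high library for CSF1R, at 72.7 CPM, with a gap of 0.784 of the range.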

How the results depend on the processing

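Of the 10 markers 1 was called lower, and 0 to 2 with each library left out in turn. The count was 0 with the striated muscle share as a covariate and without intramuscular replicates 1 and 3 together, and 2 without subcutaneous replicates 3 and 5 together, a choice made after seeing the data. Those 2 were CSF1R and MRC1 (edgeR adjusted p = 0.0245 and 0.0263), and CD163 was not called in that fit (0.0928). With the replicate block, which pairs libraries by number, the count was 1, and CD163 had an adjusted p of 0.00731. Of the 27 other macrophage genes 5 were called lower, and 3 to 8 with a library left out (8 without subcutaneous replicate 3). That count was 2 by limma voom, 0 with the muscle covariate and 0 without intramuscular replicates 1 and 3. Higher calls among them numbered 2 by DESeq2, 1 with the replicate block and 0 to 1 with a library left out. Over all genes 1533 were called, but 2540 by DESeq2, 987, 990, 757 and 963 without intramuscular replicates 1, 2 or 3 or subcutaneous replicate 3, 373 without intramuscular replicates 1 and 3, 836 without subcutaneous replicates 3 and 5, and 1 with the muscle covariate, whose values in the 2 depots do not overlap.

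Log2 fold changes turned in sign as follows, and the cause was not tested. With a library left out in turn CD68 ranged from -0.76 to 0.84, TYROBP from -0.88 to 0.29, MSR1 from -0.56 to 0.45, SPI1 from -0.63 to 0.21 and CSF1 from -0.21 to 0.18. CD68 had 0.21 by limma voom and 0.22 with the replicate block. Without intramuscular replicates 1 and 3 CD68, MSR1 and CSF1 had 0.088, 0.35 and 0.33. Without subcutaneous replicates 3 and 5 CD68, TYROBP, MSR1 and SPI1 had 0.61, 0.22, 0.24 and 0.0063. With the muscle covariate CD68, CD163, CD14, TYROBP, MSR1, VSIG4, CSF1, FCGR1A, APOE, NPC2, CXCL12 and MIF had 0.68, 1.61, 1.43, 0.66, 3.14, 1.00, 2.55, 0.66, 0.18, 0.44, 0.29 and 0.63, and IL34, MERTK and ZAP70 -0.27, -0.45 and -0.97. The other scalings and filters changed no marker's direction or call. The lowest count of any marker in a library was 50, and with 1 library per animal and depot the spread between animals and that from sampling the tissue cannot be told apart.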
